A study of Homo sapiens with 12 samples.

Results

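The pentose phosphate pathway was followed through 7 genes, H6PD, PGLS, PGD, RPIA, RPE, TKT and TALDO1, taken by name from the 22963 gene names of the deposited expression table. All 7 were listed once and all 7 passed the expression filter (mean FPKM of 1 or more) in every comparison. FPKM is the number of fragments mapped to a gene per kilobase of transcript, scaled to the mapped fragments of the library. Levels of different genes are set side by side on this scale. How far the nuclease treatment and the trend with transcript GC content, both described below, moved the order of genes was not tested. The levels came from 12 RNA-seq libraries of 2 human liver cancer cell lines, in 4 groups of 3 libraries that the labels call biological replicates. PLC/PRF5 cells (labelled WT) carried the control vector, or overexpressed EGR1 from a lentiviral construct with a CMV promoter. EGR1 is a zinc finger transcription factor of the immediate early response. MHCC97H cells were parental (labelled WT) or labelled EGR1 knockout, a CRISPR/Cas9 line grown from a single cell. Which clone was sequenced is not given in the sources used here, and the effects of cloning, guide RNA and EGR1 loss cannot be told apart. The parental MHCC97H cells are not described as carrying a control guide. All cells were cultured in DMEM with serum and antibiotics.

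The pathway branches from glycolysis at glucose phosphate. Its oxidative branch makes NADPH, the reducing power for lipid synthesis and for glutathione, and ends in ribulose phosphate. Its non-oxidative branch interconverts pentose phosphates with intermediates of glycolysis, in both directions, and so links ribose for nucleotides to glucose use. Liver cells and tumour cells are known for a strong demand for both products.

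FPKM summed to between 376335 and 437652 in a library. Read numbers cannot be had from these values, so depth is unknown and errors are those between replicates. Replicate libraries correlated at r = 0.993 to 0.997 over all genes. EGR1 itself had 1.81 ± 0.328 FPKM with the vector and 52.9 ± 3.10 with overexpression (SD, n = 3). It had 21.5 ± 1.48 FPKM in parental MHCC97H cells and 39.5 ± 9.43 in the libraries labelled EGR1 knockout (SD, n = 3), so the mRNA went against that label, and the label is used below only as a name. That log2 fold change was 0.83 (limma adjusted p = 0.00126). After the correction for transcript GC content and length described below it was 0.45, just past the threshold of 0.05 (limma adjusted p = 0.0489). An edited transcript is still counted in FPKM, and the study describes checking its knockout lines by protein blot and by DNA sequencing, data not analysed here. Of 6 hepatocyte markers, 5 had a mean of at least 1 FPKM in vector cells but only HNF4A did in parental MHCC97H cells, where the other markers ALB, AFP, APOA1, TTR and SERPINA1 were each under 1. The summed FPKM of the 6 was 1506 to 1616 with the vector, 2365 to 3315 with EGR1, 9.53 to 13.6 in parental MHCC97H cells and 23.7 to 27.4 in those labelled knockout. Endothelial VWF and CDH5, leukocyte PTPRC and CD3E and fibroblast COL1A1, COL1A2 and DCN were under 1 in all 4 groups. Fibroblast LUM had 8.68 FPKM in parental MHCC97H cells and 1.18 in those labelled knockout. CD68 had 28.5 to 53.8 FPKM over the 4 groups, and PECAM1 at most 5.99. Their part in the results below was not tested.

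In the unperturbed cells PGD, TKT and TALDO1 were the most abundant of the 7, and H6PD, RPE and RPIA the least. In vector PLC/PRF5 cells the order of mean FPKM was PGD (178), TKT (135), TALDO1 (118), PGLS (65.3), RPE (15.9), H6PD (13.4) and RPIA (5.17). All neighbours in this order were separated in their 3 libraries except RPE and H6PD, which overlapped. PGD, TKT and TALDO1 each exceeded over 95% of the 11503 genes with a mean of at least 1 FPKM, while RPIA exceeded 32.6% of them. In parental MHCC97H cells TALDO1 (512) stood first, before PGD (284), TKT (230), PGLS (33.4), RPE (14.1), RPIA (10.3) and H6PD (5.25), and all neighbours were separated. TALDO1 alone made up 47.0% of the summed FPKM of the 7 genes there, against 22.3% in vector cells. The sum itself was 1089 FPKM in parental MHCC97H cells and 531 in vector cells.

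**Figure D1:**
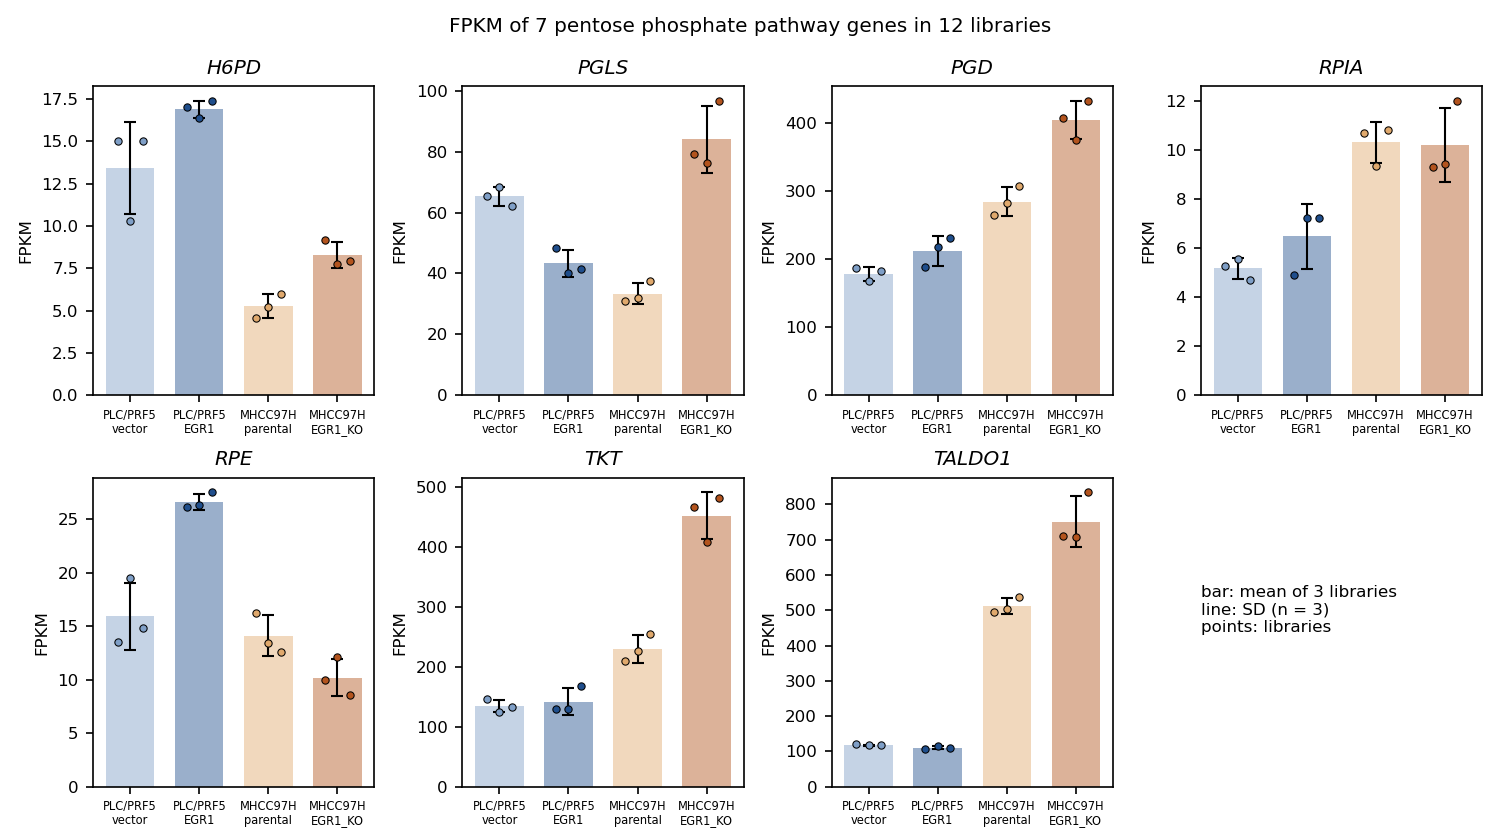
FPKM (vertical axes, linear, from 0) of each gene in the 12 libraries by group; bars are means of 3 libraries, lines the SD and points the libraries. TALDO1 lies near 118 FPKM in vector cells and at 512 in parental MHCC97H cells, and TKT rises from 230 to 452 FPKM in the MHCC97H libraries labelled knockout.

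The first comparison set parental MHCC97H cells against vector PLC/PRF5 cells, without EGR1 perturbation. Groups were compared with limma on log2(FPKM + 1) over every gene that passed the filter, and called at a Benjamini-Hochberg adjusted p under 0.05. Of the 7 genes, 4 were higher in MHCC97H cells and 2 were lower. The background was wide, with 79.8% of 12046 genes called, 38.8% higher and 40.9% lower. TALDO1, transaldolase, differed most. Its FPKM was 120, 119 and 117 with the vector and 495, 502 and 538 in parental MHCC97H cells, with no overlap. That was a log2 fold change of 2.10 (SE 0.07, limma adjusted p = 1.63e-08). With sign kept, so that falls count as lower, 95.1% of genes tested had a lower change. RPIA was higher by 0.87 (SE 0.10, limma adjusted p = 5.74e-05), TKT by 0.76 (SE 0.10) and PGD by 0.67 (SE 0.08) on the log2 scale. H6PD was lower, with a log2 fold change of -1.19 (SE 0.16, limma adjusted p = 1.11e-04), and so was PGLS, with -0.95 (SE 0.09). RPE had 15.9 and 14.1 FPKM and did not pass (limma adjusted p = 0.351). In 6 of the 7 genes the groups did not overlap, as in 81.0% of all genes tested. This comparison uses the same control libraries as the next comparisons. Cell line, supplier and vector cannot be told apart here, and more cells of one state cannot be told apart from more RNA per cell. With every library scaled to one FPKM total, the median of all genes moved by 0.10 and all 7 genes kept their sign. After a correction for transcript GC content and length, described below, TALDO1 had 2.77, PGLS -0.22, PGD 1.13 and RPE -0.66, the last then past the threshold (limma adjusted p = 9.11e-06).

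The second comparison asked how the pathway genes stood after EGR1 overexpression in PLC/PRF5 cells. The answer differed by gene. RPE rose, PGLS fell, and the abundant TKT and TALDO1 had changes of 0.07 and -0.09 on the log2 scale with no call. So 2 of 7 genes passed, 1 higher and 1 lower, where 29.6% of 11671 genes passed, 19.2% higher and 10.4% lower. The median change of the 7 genes was 0.24, against 0.09 for all genes.

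Among the oxidative enzymes, PGLS, the lactonase that opens the sugar lactone, had 65.4, 68.4 and 62.1 FPKM with the vector and 48.4, 40.1 and 41.5 with EGR1. The groups were apart, and the log2 fold change was -0.58 (SE 0.10, limma adjusted p = 0.00326). PGD, the dehydrogenase that makes NADPH and ribulose phosphate, had 186, 167 and 182 FPKM with the vector and 188, 217 and 231 with EGR1. Its lowest EGR1 library lay just above its highest vector library, and the change of 0.24 (SE 0.10) did not pass (limma adjusted p = 0.109). H6PD, the dehydrogenase of the endoplasmic reticulum that supplies NADPH there, had 15.0, 10.3 and 15.0 FPKM with the vector and 17.0, 16.4 and 17.4 with EGR1. Vector replicate 2 was the low library, and the change of 0.33 (SE 0.14) did not pass (limma adjusted p = 0.0995). Without that library the change was 0.16 (limma adjusted p = 0.133).

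RPE and RPIA act on the same substrate, ribulose phosphate. RPE, the epimerase that makes xylulose phosphate, had 13.5, 19.5 and 14.8 FPKM with the vector and 26.1, 26.3 and 27.5 with EGR1. The groups were well apart, with a log2 fold change of 0.72 (SE 0.13, limma adjusted p = 0.00421). RPIA, the isomerase that makes ribose phosphate, had 5.26, 5.56 and 4.69 FPKM with the vector. With EGR1 it had 4.92, 7.24 and 7.24, so replicate 1 fell among the vector values (log2 fold change 0.26, SE 0.14, limma adjusted p = 0.191). TKT, transketolase, which moves pieces of sugar between phosphates, had 146, 125 and 133 FPKM with the vector and 129, 129 and 168 with EGR1, overlapping groups with a change of 0.07 (SE 0.12). TALDO1 had 107, 116 and 110 FPKM with EGR1, just under the vector values of 117 to 120, and its change of -0.09 (SE 0.08) did not pass (limma adjusted p = 0.405). The groups did not overlap in 5 of the 7 genes, against 47.7% of genes tested. In 3 against 3 libraries the exact permutation p of such a gene is 0.10, two-sided, the smallest possible. Without EGR1 replicate 1, the values of PGD and RPIA were 0.33 and 0.42 and both passed (limma adjusted p = 0.0213 and 0.0292), for 4 genes in all. In that fit 27.0% of 11665 genes passed.

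The third comparison set the MHCC97H libraries labelled EGR1 knockout against parental MHCC97H cells. Most of the pathway was higher there. PGLS, TKT, H6PD, TALDO1 and PGD rose and RPE fell, so that 5 of 7 genes passed higher and 1 lower. In the background 66.3% of 11577 genes passed, 34.8% higher and 31.5% lower. The median change of the 7 genes was 0.55, against 0.02 for all genes. The sum over the 7 genes went from 1089 to 1719 FPKM. FPKM totals of the libraries were also higher, 407758 to 437652 against 376335 to 382430 in parental cells. After the GC content and length correction described below, the median change of the 7 genes was 0.23.

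TKT had 209, 227 and 254 FPKM in parental cells and 466, 408 and 482 in the libraries labelled knockout, where it exceeded 99.0% of the genes with a mean of at least 1. The log2 fold change was 0.97 (SE 0.11, limma adjusted p = 1.00e-04). TALDO1 had 495, 502 and 538 FPKM and then 710, 707 and 834, with replicate 3 highest in both groups. Its change was 0.55 (SE 0.10, limma adjusted p = 0.00139). In both genes the groups were apart by more than the range within either one.

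PGLS moved most of the 7. Its FPKM was 31.0, 31.8 and 37.5 in parental cells and 79.3, 76.4 and 96.7 in those labelled knockout. The log2 fold change was 1.30 (SE 0.12, limma adjusted p = 4.43e-05). With sign kept, 98.4% of genes tested had a lower change. PGD went from 265, 282 and 307 FPKM to 406, 375 and 431, a change of 0.50 (SE 0.10, limma adjusted p = 0.00165). H6PD went from 4.58, 5.19 and 5.98 FPKM to 9.18, 7.76 and 7.94, a change of 0.58 (SE 0.12, limma adjusted p = 0.00252). Each of these oxidative genes had every knockout-labelled library above every parental one.

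RPE went the other way, from 16.2, 13.4 and 12.6 FPKM to 9.99, 12.1 and 8.59. The groups were apart by a small margin, with a change of -0.43 (SE 0.14, limma adjusted p = 0.0206). This call rested on single libraries. Without parental replicate 1 the change was -0.33, without knockout-labelled replicate 1 it was -0.42 and without replicate 3 it was -0.32, with limma adjusted p of 0.0761, 0.0604 and 0.0685. RPIA had 10.7, 9.34 and 10.8 FPKM in parental cells and 9.29 and 9.43 in replicates 1 and 2 of those labelled knockout, with replicate 3 above every parental library. The groups overlapped, with a change of -0.01 (SE 0.12). The groups did not overlap in 6 of the 7 genes, as in 71.8% of genes tested. Scaling every library to one FPKM total moved the median of all genes by -0.13. On that scale the changes were 1.15 for PGLS, 0.82 for TKT, 0.44 for H6PD, 0.39 for TALDO1, 0.35 for PGD and -0.57 for RPE. The same 6 genes passed, where 65.5% of all genes did.

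The GC content of the transcripts moved with these changes. Over all genes, Spearman's rho between GC content of the longest annotated transcript and log2 fold change was 0.77 across 10806 genes in MHCC97H cells and -0.45 across 10829 genes in PLC/PRF5 cells. These genes share the same libraries and are not independent replicates. GC content was 66.0% for PGLS, 58.1% for TKT, 56.5% for H6PD and TALDO1, 52.9% for PGD, 48.6% for RPIA and 36.6% for RPE, against a median of 48.7% for all genes tested. PGLS and RPE, the only genes of the 7 called in both cell lines, thus lay at both ends of the GC range, and each changed in opposite directions in the cell lines.

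**Figure D2:**
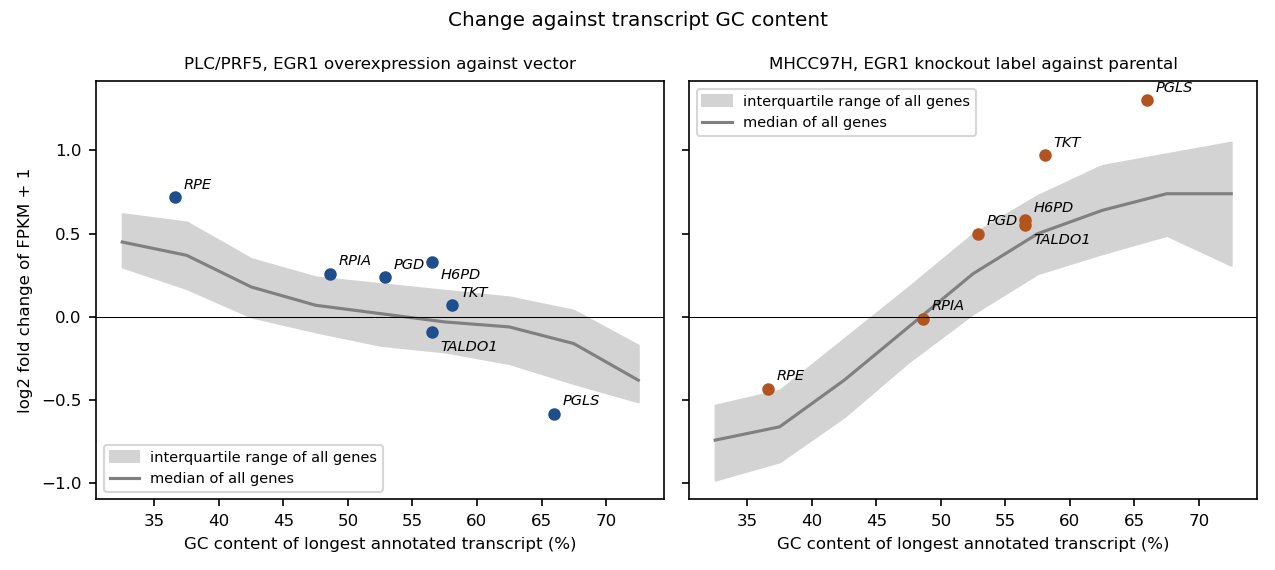
Log2 fold change (vertical axes) against GC content of the longest annotated transcript in percent (horizontal axes) for the 7 genes (points), with the median and interquartile range of all genes tested in bins of 5 percentage points. In MHCC97H cells the median of all genes climbs from -0.66 at 35 to 40% GC to 0.74 at 65 to 70%, and PGLS and TKT lie above the interquartile range of their bins.

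The comparisons were therefore repeated after removing, from each library, a smooth trend on GC content and on length. In MHCC97H cells 4 of the 7 genes then passed, where 46.7% of genes did, and all 4 were higher. PGLS had 0.54 (limma adjusted p = 4.22e-04), TKT 0.48 (limma adjusted p = 4.80e-04) and H6PD 0.29 (limma adjusted p = 0.00934). RPE turned from lower to higher, at 0.23 (limma adjusted p = 0.0132). TALDO1 had -0.01 and PGD 0.14, and neither passed (limma adjusted p = 0.862 and 0.0777). In PLC/PRF5 cells 4 of the 7 passed, where 34.7% of genes did. PGLS remained lower at -0.43 (limma adjusted p = 0.0133) and RPE higher at 0.35 (limma adjusted p = 0.00618), and PGD at 0.28 and H6PD at 0.24 also passed (limma adjusted p = 0.0156 and 0.0373). Whether the trend arose in the cells or in library preparation cannot be told apart here, and the correction removes it in either case.

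**Figure D3:**
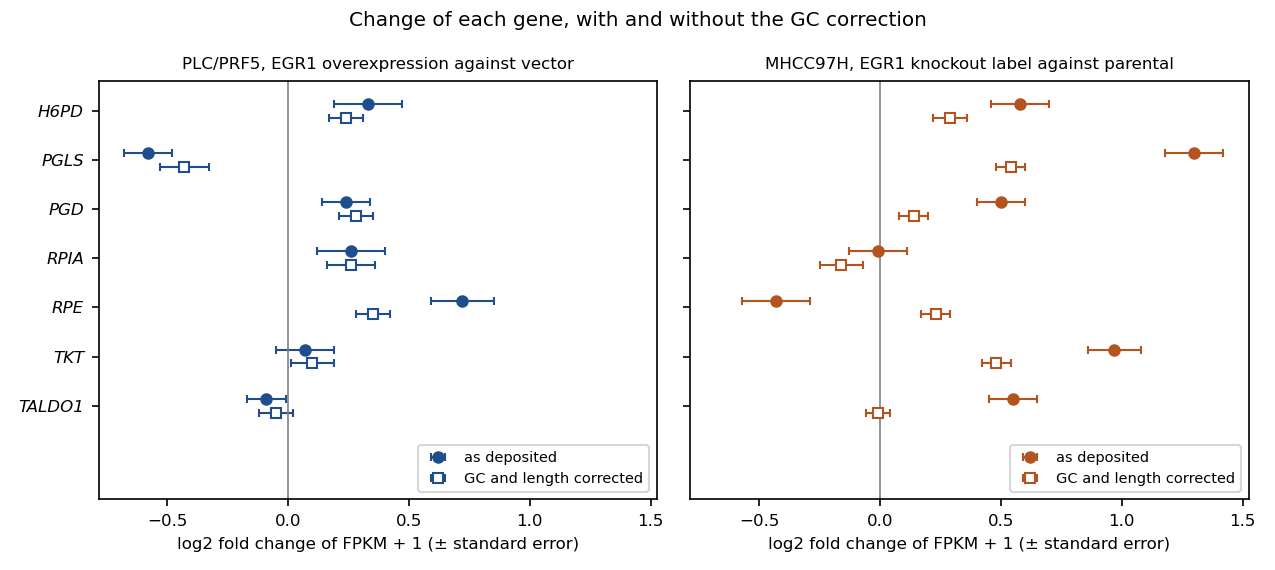
Log2 fold change ± standard error (horizontal axes) of the 7 genes in each cell line, as deposited (filled circles) and after the GC content and length correction (open squares). In MHCC97H cells RPE moves from -0.43 to 0.23 and TALDO1 from 0.55 to -0.01, while PGLS keeps its sign in both cell lines.

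The difference between the overexpression effect and the knockout-label effect was tested itself, in 1 limma fit of all 12 libraries. It passed for 4 of 7 genes, where 63.8% of 12090 genes passed. The difference was -1.89 (SE 0.15, limma adjusted p = 2.01e-06) for PGLS, 1.16 (SE 0.20, limma adjusted p = 3.41e-04) for RPE, -0.90 (SE 0.17, limma adjusted p = 5.43e-04) for TKT and -0.64 (SE 0.12, limma adjusted p = 4.85e-04) for TALDO1. For PGD, H6PD and RPIA it was -0.26, -0.24 and 0.27 without a call. Without vector replicate 2 the H6PD difference was -0.41 (limma adjusted p = 0.0248), and without EGR1 replicate 1 that of RPIA was 0.43 (limma adjusted p = 0.0350). After the GC correction it was -1.03 for PGLS and -0.41 for TKT, both past the threshold, but 0.14 for RPE and -0.06 for TALDO1, with no call, and RPIA passed at 0.41 (limma adjusted p = 0.0307).

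Ratios of FPKM within a library do not depend on how that library was scaled, and are given as a description. PGD over TKT was 1.27, 1.24 and 1.21 in parental MHCC97H cells and 0.871, 0.918 and 0.893 in those labelled knockout, so TKT passed PGD in each of these libraries although the FPKM of the genes overlapped as groups. With the vector this ratio was 1.28, 1.33 and 1.37, and with EGR1 1.45, 1.68 and 1.37. TKT over TALDO1 was 1.14 ± 0.0818 with the vector and 1.28 ± 0.214 with EGR1 (SD, n = 3). In MHCC97H cells the same ratio was 0.449 ± 0.0257 in parental cells and 0.604 ± 0.0457 in those labelled knockout (SD, n = 3), without overlap. RPIA over RPE fell from 0.331 ± 0.0531 with the vector to 0.242 ± 0.0471 with EGR1 (SD, n = 3), in separate groups, and was 0.737 ± 0.108 and 1.03 ± 0.320 in the MHCC97H groups, which overlapped. These ratios still carry the trend with GC content. The corrected changes with EGR1 were 0.26 for RPIA and 0.35 for RPE, closer together than as deposited. In MHCC97H cells those of PGD, TKT and TALDO1 were 0.14, 0.48 and -0.01.

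**Figure D4:**
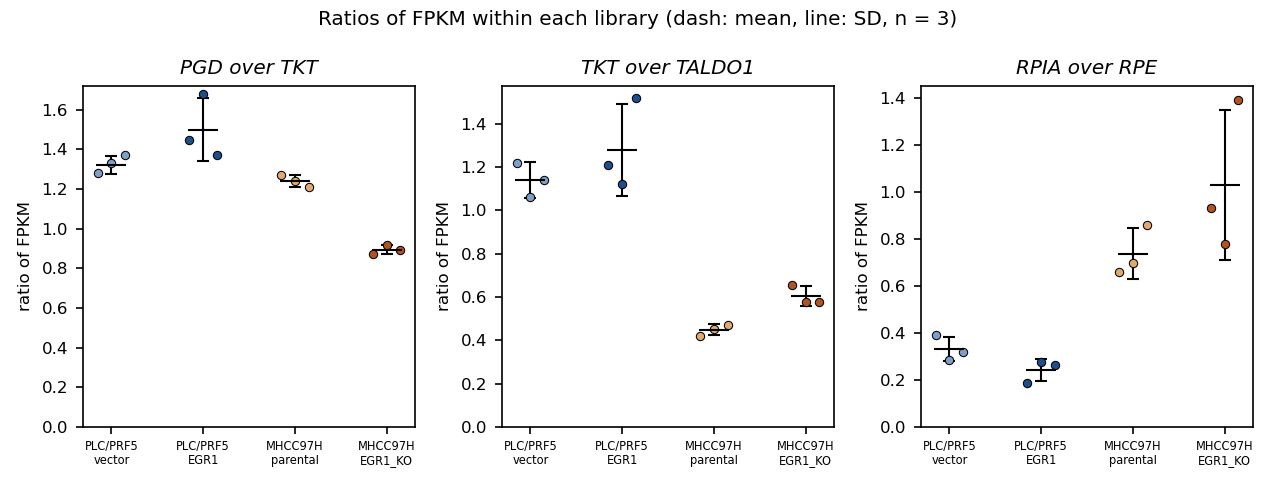
Ratio of FPKM within each library (vertical axes, linear, from 0) for PGD over TKT, TKT over TALDO1 and RPIA over RPE by group; points are libraries, dashes means and lines the SD of 3 libraries. PGD over TKT lies above 1 in 9 libraries and under 1 in the 3 labelled knockout.

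The 7 genes lie on 5 chromosomes of GRCh38. H6PD (1, from 9234775 to 9271337) and PGD (1, from 10398592 to 10420144) lie on the same chromosome, and RPIA (2, from 88691644 to 88750935) and RPE (2, from 210002565 to 210022259) lie far apart on another. PGLS is on chromosome 19 (17511629 to 17521288), TALDO1 on 11 (747329 to 765024) and TKT on the minus strand of 3 (53224707 to 53256052), and the others are on the plus strand. RPE has 6 annotated pseudogenes named for it, PGD 1 and RPIA 1, so how fragments were shared among copies bears on these genes and was not tested. Exons of RPE overlap those of KANSL1L, and exons of PGLS those of AC010618.3, on the other strand, and whether strand was used in counting is not given in the sources used here. The close copy RPEL1 had at most 0.297 FPKM in any library. The transketolase-like genes TKTL1 and TKTL2 had at most 0.0918 and 0.0392 FPKM and were listed at 0 in most libraries, so nearly all transketolase FPKM in these cells was TKT.

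The RefSeq promoter windows of all 7 genes (250 bases before to 50 after the start, GRCh38.p14) were searched on both strands for short motifs, since EGR1 was the factor varied. The H6PD window, chr1:9239597-9239896, lay inside the annotated gene, past its first base at 9234775, so sequence around that base was not searched. The PGD window also began past the first annotated base of its gene. The EGR1 consensus GCGTGGGCG was found in PGD alone and the variant GCGGGGGCG in TKT alone, against 0.795% and 5.07% of 35116 windows. The 250 bases before the start are shown for these genes, with the EGR1 match in capitals. The PGD stretch is chr1:10398814-10399063 on the plus strand, of which 20 bases lie in an annotated exon. The TKT stretch is chr3:53256023-53256272 on the minus strand, of which 30 bases lie in an annotated exon, and its match reads on the opposite strand.
PGD: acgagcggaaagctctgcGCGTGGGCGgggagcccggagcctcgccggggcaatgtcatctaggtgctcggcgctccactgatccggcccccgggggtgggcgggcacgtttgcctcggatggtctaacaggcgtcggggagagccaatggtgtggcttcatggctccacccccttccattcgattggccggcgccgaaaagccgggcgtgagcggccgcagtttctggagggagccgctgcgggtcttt
TKT: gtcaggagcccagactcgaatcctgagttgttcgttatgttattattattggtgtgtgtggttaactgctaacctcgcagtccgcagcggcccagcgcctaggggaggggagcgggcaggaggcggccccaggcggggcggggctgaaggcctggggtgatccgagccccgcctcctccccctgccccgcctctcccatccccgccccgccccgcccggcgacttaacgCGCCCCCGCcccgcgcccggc
The PGD match runs from base -232 to -224 and the TKT match from -21 to -13, counted from the start. A GC box, GGGCGG, was found in 6 of the 7 windows, all but that of H6PD, and in 15786 of all 35116 windows. It overlaps both EGR1 matches. The antioxidant response element core TGACNNNGC was found in PGD and RPE, and in 13.3% of all windows. These matches are letters in a window, and no binding was measured here.

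Genes around the pathway were described from 4 lists, whose changes stand beside those of all genes. In PLC/PRF5 cells 1 of 6 tested genes of side reactions was called, and 5 of 16 of PRPP synthesis and use. Of other NADPH sources and NAD kinases 1 of 11 was called, and of reductases 2 of 9, where 29.6% of all genes were called. In MHCC97H cells the counts were 4 of 7, 7 of 16, 8 of 12 and 6 of 9, where 66.3% of all genes were called. Among these 8 were the NAD kinases NADK and NADK2, and ME2, a malic enzyme that mainly uses NAD. The reductases were listed for their use of NADPH, but CYB5R3, counted in both cell lines, mainly uses NADH. The median changes were -0.06, 0.03, 0.00 and 0.07 in PLC/PRF5 cells (0.09 over all genes) and -0.23, 0.04, -0.18 and 0.25 in MHCC97H cells (0.02 over all genes), in the same order. After the GC correction the numbers called were 1, 6, 3 and 3 in PLC/PRF5 cells (34.7% of all genes) and 2, 8, 7 and 6 in MHCC97H cells (46.7% of all genes). PRPP is the activated ribose made from the pathway's ribose phosphate. Of the genes of the PRPP list called in the libraries labelled knockout, 1 was higher and 6 were lower, against 34.8% and 31.5% of all genes. The list also holds later steps of purine synthesis, and of these GART and PAICS were among the 6 lower. After the correction GART had -0.51 (limma adjusted p = 4.14e-04), and PAICS had -0.01 with no call (limma adjusted p = 0.868). PRPS2, a PRPP synthetase, had a log2 fold change of 0.49 with EGR1 (limma adjusted p = 0.00785) and -0.72 in those libraries (limma adjusted p = 4.48e-04), and passed in both directions after the GC correction, at 0.36 and -0.45. PPAT, which commits PRPP to purines, had 0.51 and -0.94, and NAMPT, which uses it for NAD, 0.59 and -0.87, all called. After the correction PPAT and NAMPT had 0.18 each with EGR1 with no call, and -0.32 and -0.16 in the libraries labelled knockout, both called. QPRT, which also feeds NAD synthesis, went the opposite way, with -0.39 and 1.10, and -0.35 and 0.58 after the correction, all called. PGM2, which handles free ribose phosphate, had 0.54 and -0.54, both called, and 0.29 and -0.04 after the correction, of which only the first passed.

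Of other NADPH sources, IDH2, the mitochondrial isocitrate dehydrogenase, fell from 77.2 ± 4.58 to 30.1 ± 3.27 FPKM with EGR1 (SD, n = 3), a log2 fold change of -1.33 (SE 0.10, limma adjusted p = 8.58e-05). In the libraries labelled knockout IDH2 rose by 0.79 (limma adjusted p = 2.27e-04), and both changes passed after the GC correction, at -1.31 and 0.37. ALDH1L2, a mitochondrial folate enzyme, fell by 1.15 in the libraries labelled knockout, from 3.42 ± 0.324 to 1.00 ± 0.214 FPKM (SD, n = 3). It had -0.67 after the correction (limma adjusted p = 4.31e-04), and was under 1 FPKM in both PLC/PRF5 groups. Among reductases, TXNRD1, which reduces thioredoxin with NADPH, rose from 105 ± 2.12 to 229 ± 12.6 FPKM with EGR1 (SD, n = 3), a change of 1.12 (SE 0.08, limma adjusted p = 8.58e-05), with 1.01 after the correction. In MHCC97H cells TXNRD1 had -0.04 with no call, and 0.19 after the correction (limma adjusted p = 0.0201). CYB5R3, the NADH-cytochrome b5 reductase, had -0.44 with EGR1 (limma adjusted p = 0.00563) and 1.41 in the libraries labelled knockout (limma adjusted p = 2.81e-05), and both passed after the correction, at -0.41 and 0.92. RGN, regucalcin, had the largest called change of the side-reaction list in those libraries, 0.56, from 1.34 ± 0.566 to 2.39 ± 0.295 FPKM (SD, n = 3), and did not pass after the correction.
The counts in small lists moved with single libraries, and so did the share of all genes called. In PLC/PRF5 cells 3 genes of the NADPH source and NAD kinase list were called without vector replicate 2, and 2 without EGR1 replicate 3. Of all genes 34.3% and 19.0% were called in those fits. In MHCC97H cells 2 side-reaction genes were called without parental replicate 2, where 55.6% of all genes were called.

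Genes whose levels ran most alike over the 12 libraries, by Pearson's r of log2(FPKM + 1) among 11447 genes, are given as a description. The libraries fall into 4 tight groups, so r mostly compares group means. They were MCM3AP (0.996) and MAST2 (0.994) for H6PD, MAP2K2 (0.995) and ATP6V0C (0.989) for PGLS, and RAB35 (0.996) and UCK2 (0.995) for PGD. For RPIA they were TOR1A (0.968) and OSER1 (0.967), for RPE LIG4 (0.986) and OTUD3 (0.985), and for TKT RILP (0.994) and TPD52L2 (0.993). For TALDO1 they were APOL1 and MSC, at 0.999 each. Unlike TALDO1, both were near or at 0 in PLC/PRF5 cells. APOL1 had a mean of 0.219 FPKM with the vector and 15.3 in parental MHCC97H cells, and MSC 0 and 47.6.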

How the data were processed

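RNA was purified with oligo(dT) beads, and libraries were treated with duplex-specific nuclease, which degrades cDNA of abundant transcripts, before Illumina NovaSeq sequencing. How far this treatment moved the levels of abundant genes such as TALDO1 was not tested. The authors deposited FPKM for each library. StringTie and hg38 are named in the submitters' processing notes, and the aligner, versions and annotation are not given in the sources used here. The table holds 3031 assembled loci without gene names.

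FPKM were used as deposited, log2-transformed after adding 1, and tested with limma 3.58.1 (R 4.3.3) with an intensity trend. Each comparison used its own 6 libraries, two-sided, with Benjamini-Hochberg adjustment over all genes kept by a filter (mean of the libraries compared, 1 FPKM or more). FPKM are not counts, so no count test was run. GC content and length came from the longest basic GENCODE 29 transcript, and were removed as splines with 5 degrees of freedom from each library's deviation from the mean of the compared libraries (of the cell line in the fit of 12); genes without a value were left out.

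The 7 genes and all lists were chosen with earlier results of these data known. The rule for other genes took, per list, up to 4 called without overlap in both cell lines and the largest called change in each, plus the 2 genes most alike to each member. Alternatives were a pseudocount of 0.1, no expression filter, scaling to one total, quantile normalization, no trend, a fit of all 12 libraries, the replicate block, a threshold of 0.01 and leaving out each library. The fits were tested on simulated data. Plots were drawn with matplotlib 3.10.9.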

Additional observations from a re-analysis of the deposited data

Results flagged for a closer look

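The difference between the overexpression effect in PLC/PRF5 cells and the knockout-label effect in MHCC97H cells passed the limma test for 4 genes. The difference was -1.89 for PGLS, 1.16 for RPE, -0.90 for TKT and -0.64 for TALDO1 on the log2 scale. After the GC content and length correction the values were -1.03, 0.14, -0.41 and -0.06, with limma adjusted p of 4.80e-05, 0.181, 0.0120 and 0.580. EGR1 mRNA was higher in the perturbed group of both cell lines. Groups of 3 libraries are too small for the test of single outlying libraries.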

How the results depend on the processing

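The alternatives gave 652 values, of which 613 had the direction and call, or about the size, of the reported one. With overexpression, the number of the 7 genes called was 2, and 4 with the GC content and length correction, alone or with the replicate block. Of all genes 29.6% were called, and 34.7% with the correction alone or 31.7% with the block added. The number of the 7 genes ranged from 2 to 4 with each library left out, where 16.5% to 34.3% of all genes were called. With the replicate block alone the counts were 2 in PLC/PRF5 and 6 in MHCC97H cells, where 27.9% and 69.0% of all genes were called. The block alone changed no call of the 7 genes. Under it, other NADPH sources and NAD kinases called in PLC/PRF5 cells went from 1 to 2. Same-numbered libraries did not all deviate together (r of -0.13, 0.14 and -0.08 in PLC/PRF5 and 0.03, 0.03 and 0.47 in MHCC97H cells), so the numbers were not taken as pairs. Under the GC correction, alone or with the block, the knockout-label change turned to 0.23 for RPE and -0.01 for TALDO1. Under the GC correction alone the difference of effects turned to 0.12 for PGD. With libraries left out, the uncalled change of TKT with EGR1 ranged from -0.06 to 0.13 and that of RPIA under the knockout label from -0.12 to 0.05. RPE under the knockout label missed the threshold of 0.05 when all expressed genes were kept (limma adjusted p = 0.0542), and that of 0.01. PGD passed with EGR1 after quantile normalization (0.28, limma adjusted p = 0.0383). The share of higher genes among all called went from 64.8% to 46.0% with quantile normalization in PLC/PRF5 cells, and from 52.5% to 41.5% with scaling in MHCC97H cells. Apart from the GC correction's own construction, the cause was not tested. Unknown depth limits RPIA, RPE and H6PD most, which have the lowest FPKM.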
